A study of Mus musculus with 6 samples.

Results

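Mast cells are described here in mouse skin wounds through 9 genes, which encode granule proteases (Cpa3, Cma1, Mcpt4, Tpsb2), chains of the IgE receptor (Fcer1a, Ms4a2), the growth factor receptor Kit and enzymes that make histamine (Hdc) and prostaglandin D2 (Hpgds). The array carries 18 probes for these genes among 45281 in all. The members are the 14 of these 18 probes that had a detection p-value under 0.01 on at least 2 of the 6 arrays, as did 17410 probes of the whole array. They cover 8 of the 9 genes. The single Ms4a2 probe, 2 of 3 Kit probes and 1 of 2 Tpsb2 probes were detected on none of the arrays.

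Total RNA came from full thickness wounds of the back skin, 8 days after injury, in mice labelled C57/BL6, and each array carries 1 sample. Knockdown wounds (2 arrays) came from mice aged 5 months that carried β-Catenin flox/flox alleles (exons 2-6) with the Cre-Esr1 transgene and received tamoxifen. Their tamoxifen controls (2 arrays) had the same floxed exons 2-6 without the Cre, were 4 months old and also received tamoxifen. The stabilized wound (1 array) came from a β-Catenin flox/flox (exon 3) mouse aged 2 months and given adenovirus-CRE, which yields a stabilized β-catenin. The GFP wound (1 array) came from a mouse of the same exon 3 genotype and age given adenovirus-GFP, so both of these mice received a virus. Knockdown and age cannot be told apart, and neither can model system, virus and age. The promoter of the Cre-Esr1 transgene and any pooling of animals are not given in the sources used here. The labels call the samples biological replicates.

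Mast cells are resident tissue cells that store proteases, histamine and heparin in granules. IgE bound to the high affinity receptor on their surface triggers release when an antigen crosslinks it, and stem cell factor acting on Kit keeps the cells alive. Skin mast cells are mainly of the connective tissue type, which holds chymases, tryptase and carboxypeptidase A3 together.

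Between 15883 and 16681 probes were detected on an array. Mean intensity was 648.7 to 714.8 on 5 arrays and 544.4 on the GFP array, which also had the fewest detected probes. Tamoxifen control replicate 2 correlated across genes more closely with knockdown replicate 1 (r = 0.9811) than with its own replicate (r = 0.9763). The brightest of 4 probes of the targeted gene Ctnnb1 read 11.74 and 11.86 (log2) in the knockdown and 11.78 and 12.09 in the tamoxifen controls. The knockdown difference was -0.13 on this probe and -0.24, 0.05 and 0.18 on the others. Only the probe at -0.24 had both knockdown arrays below both controls. The position of these probes with respect to exons 2-6 was not examined. All values below are log2 signals after background correction, an added offset of 16 and quantile normalization over the 6 arrays. The offset makes differences of dim probes smaller, and levels of different probes are not comparable.

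In knockdown wounds the RNA of the carboxypeptidase, both chymases among the members and the IgE receptor α chain read higher than in the tamoxifen controls, by 0.48 to 0.87 on the log2 scale over the 8 probes of these 4 genes, and the groups did not overlap at any of them. Tryptase, Kit, histidine decarboxylase and prostaglandin D synthase did not share this pattern. No probe passed the test. limma with Benjamini-Hochberg adjustment over all 17410 probes called 0 member probes and 0 probes in all (0%), with a smallest adjusted p of 0.177. At an unadjusted p under 0.05, 8 of the 14 member probes were higher and 0 lower, against 5.77% of all probes higher and 4.88% lower. These 8 are the probes of the 4 genes, and 1 of them, the dimmer Fcer1a probe, passed detection mainly through the knockdown arrays. With 1 probe per gene, 4 of 8 members were higher at this cut and 0 lower, against 625 and 438 of 10266 genes. The members were chosen with earlier results of these data known, so the counts here and below are descriptions and no test of the set. Both knockdown arrays lay above both controls for 8 of the 14 member probes, against 22.7% of all probes, and below both for 1, against 20.1%. Over the 13 member probes detected on all 6 arrays, 7 had an unadjusted p under 0.05 and the same number lay above both controls. Of the 14 member probes 12 were higher in the knockdown, against 50.6% of all probes. The median difference of the member probes was 0.50, against 0.00 over all probes tested. Because RNA of whole wounds was measured, a change in the number of cells of a type and a change in RNA per cell cannot be told apart.

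**Figure D1:**
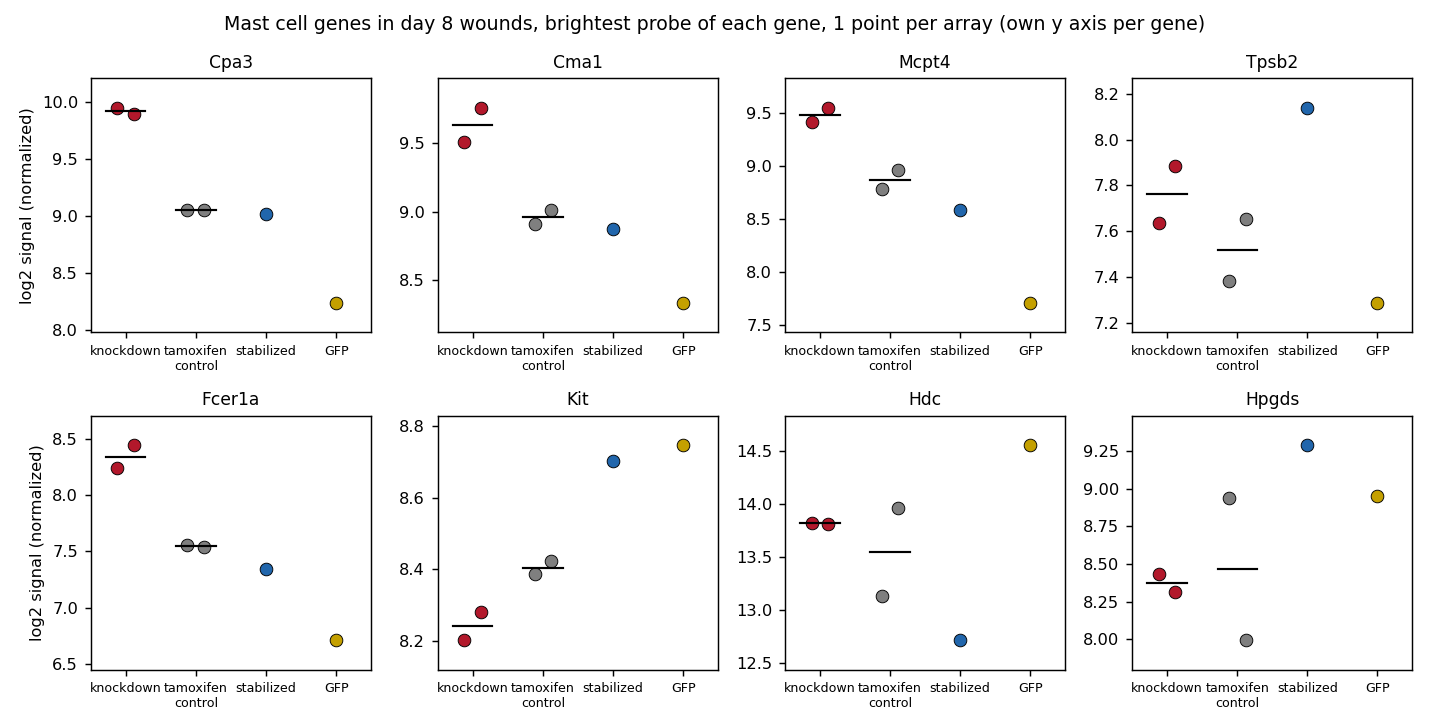
Normalized log2 signal (y axis, a separate scale for each gene) of the brightest probe of each detected mast cell gene, by group (x axis), with 1 point per array and a bar at the mean of each group of 2 arrays. Cpa3, Cma1, Mcpt4 and Fcer1a run from the knockdown at the top to the GFP array at the bottom, with the tamoxifen controls and the stabilized array between, while Tpsb2, Kit, Hdc and Hpgds each have another order.

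Cpa3 encodes carboxypeptidase A3, a granule enzyme that trims amino acids from the ends of peptides. Its brightest probe read 9.95 and 9.89 in the knockdown and 9.05 and 9.05 in the tamoxifen controls, a 1.83-fold difference (0.87 ± 0.14 on the log2 scale, SE; limma, adjusted p = 0.177). The 2 knockdown arrays stood apart from the 2 controls by far more than replicates of either group differed. The stabilized array, at 9.02, lay beside the tamoxifen controls, and the GFP array, at 8.24, was the lowest. The second probe of the gene read 9.66 and 9.92 in the knockdown and 9.07 and 9.16 in the controls (0.68 ± 0.16), and the third, dimmer probe differed by 0.48 ± 0.14. All 3 probes placed the groups in the same order and correlated with each other over the 6 arrays with r of at least 0.9749.

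Cma1 and Mcpt4 encode chymases, serine proteases that connective tissue mast cells keep bound to heparin. Mcpt4 read 9.41 and 9.55 in the knockdown and 8.78 and 8.96 in the tamoxifen controls (0.61 ± 0.15, SE; limma, adjusted p = 0.27). Its stabilized array read 8.59 and its GFP array 7.71, the lowest of the 6. The brighter Cma1 probe read 9.51 and 9.76 in the knockdown and 8.91 and 9.01 in the controls, a difference of 0.67 ± 0.16 (limma, adjusted p = 0.246). The other Cma1 probe differed by 0.52 ± 0.17 (adjusted p = 0.374). On both probes the knockdown arrays were the highest, the controls next and close together, the stabilized array under them and the GFP array lowest.

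Fcer1a encodes the α chain of the high affinity IgE receptor, the part that binds IgE. Its brighter probe read 8.24 and 8.44 in the knockdown and 7.56 and 7.54 in the tamoxifen controls, which is 1.73-fold (0.79 ± 0.15, SE; limma, adjusted p = 0.186), with 7.34 on the stabilized array and 6.71 on the GFP array. The dimmer Fcer1a probe was detected on 3 arrays only, both of the knockdown and 1 control, so it entered through the group in which it is high. It differed by 0.75 ± 0.15 (adjusted p = 0.198). Ms4a2, the β chain of the same receptor, read 5.22 and 4.84 in the knockdown and 4.80 and 4.65 in the controls, below detection on every array, so no difference is given.

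In each of these 4 genes the order from high to low was knockdown, tamoxifen control, stabilized, GFP, on all 8 probes, although the dimmer Fcer1a probe was below detection on both adenovirus arrays. The stabilized array minus the mean of the tamoxifen controls was -0.04, -0.25 and -0.11 on the 3 Cpa3 probes, -0.09 and -0.32 on the Cma1 probes, -0.28 for Mcpt4 and -0.20 on the brighter Fcer1a probe. The controls had standard deviations of 0.02 on the dimmer Cma1 probe, 0.13 for Mcpt4 and 0.01 on the brighter Fcer1a probe, and no test was made against the single stabilized array. The GFP array minus the same mean was -0.82 for Cpa3, -0.63 for the brighter Cma1 probe, -1.16 for Mcpt4 and -0.84 for the brighter Fcer1a probe. It was the lowest of the 6 arrays for 9 of the 14 member probes, against 24.8% of all probes, and the knockdown arrays were the top pair for 8, against 12.9%. This order also runs with the age of the mice, 5, 4 and 2 months, apart from the gap between the stabilized and GFP mice of equal age, and with model system, which cannot be told apart from the groups.

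The promoters of these 4 genes are shown because the genes ranked the groups alike, and because Gata2, a transcription factor that mast cells depend on, binds sequences with the core GATAA. Each covers the 250 bases before and the first 50 bases of the gene, 5′ to 3′ on the strand of the gene, from RefSeq on GRCm38.p6. Capitals mark GATAA on either strand (TTATC on the strand shown). The regions are chr3:20242132-20242431 (minus strand) for Cpa3, chr14:55944626-55944925 (minus) for Cma1, chr14:56062261-56062560 (minus) for Mcpt4 and chr1:173227180-173227479 (minus) for Fcer1a.
Cpa3: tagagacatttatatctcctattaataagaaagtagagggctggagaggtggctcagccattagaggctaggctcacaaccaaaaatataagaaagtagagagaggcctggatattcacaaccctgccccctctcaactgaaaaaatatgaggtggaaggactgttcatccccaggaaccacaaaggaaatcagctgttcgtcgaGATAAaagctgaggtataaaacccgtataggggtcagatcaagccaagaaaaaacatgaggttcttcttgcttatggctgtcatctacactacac
Cma1: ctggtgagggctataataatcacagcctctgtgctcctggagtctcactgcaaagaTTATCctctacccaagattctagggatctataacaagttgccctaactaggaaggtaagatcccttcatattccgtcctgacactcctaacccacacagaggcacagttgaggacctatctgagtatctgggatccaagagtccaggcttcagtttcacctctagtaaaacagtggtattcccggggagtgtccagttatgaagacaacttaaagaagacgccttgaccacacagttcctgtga
Mcpt4: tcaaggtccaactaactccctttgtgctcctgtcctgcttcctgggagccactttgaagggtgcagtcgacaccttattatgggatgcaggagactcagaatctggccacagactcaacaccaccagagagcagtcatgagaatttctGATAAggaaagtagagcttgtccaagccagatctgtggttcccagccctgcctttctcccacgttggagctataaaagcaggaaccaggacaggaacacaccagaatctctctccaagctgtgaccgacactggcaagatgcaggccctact
Fcer1a: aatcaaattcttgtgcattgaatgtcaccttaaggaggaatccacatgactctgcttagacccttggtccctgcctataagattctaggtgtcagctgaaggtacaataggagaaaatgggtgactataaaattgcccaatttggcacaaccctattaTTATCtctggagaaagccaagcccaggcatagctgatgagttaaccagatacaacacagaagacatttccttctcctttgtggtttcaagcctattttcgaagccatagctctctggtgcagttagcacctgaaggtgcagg

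Each of the 4 holds 1 match, starting 45 bases before the gene start in Cpa3, 194 in Cma1, 102 in Mcpt4 and 92 in Fcer1a. Of the 8 members with a promoter entry, 5 held the motif, the other being Ms4a2 with 3 matches, and Kit, Hdc and Hpgds held none. Among all 32851 promoter entries of this length 25.4% held it. The E-box letters CANNTG, on either strand the same, occurred 2 times in Cpa3, once in Cma1, 3 times in Fcer1a and not in Mcpt4, and 72.3% of all entries held them. These matches describe letters in the window and are not evidence of binding. Gata2 itself read 8.03 and 7.87 in the knockdown and 7.40 and 7.59 in the tamoxifen controls (0.46 ± 0.16, SE; limma, adjusted p = 0.403), and 7.88 on the stabilized against 7.81 on the GFP array.

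Tpsb2, the tryptase of connective tissue mast cells, had its own order. Its detected probe read 7.64 and 7.88 in the knockdown and 7.38 and 7.65 in the tamoxifen controls, and the groups overlapped (0.24 ± 0.18, SE; limma, adjusted p = 0.69). The highest reading was that of the stabilized array, 8.14, and the lowest that of the GFP array, 7.29. Over the 6 arrays its correlation with the mean of the 5 detected protease and IgE receptor genes, itself included, was 0.5376, whereas Cpa3, Cma1, Mcpt4 and Fcer1a had 0.9821 to 0.9906.

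Kit, the receptor for stem cell factor, ran the opposite way in the knockdown and by little. Its detected probe read 8.20 and 8.28 in the knockdown and 8.39 and 8.42 in the tamoxifen controls, which do not overlap but differ by -0.16 ± 0.14 (SE; limma, adjusted p = 0.729). The stabilized and GFP arrays read 8.70 and 8.75 and were the highest of the 6. Kit is also carried by melanocytes, and 6 of 8 listed melanocyte genes passed detection, while Tyr and Oca2 did not. Their difference in the knockdown was below 0 for all 6 (median -0.49, 0 passing the test), with 5 of them overlapping between the groups. The summed linear signal of the 6 was 3642 and 3302 in the knockdown, against 7040 and 5630 in the controls. Without Ednrb, the brightest of them and also used by other cells, the sums were 1697 and 1055 in the knockdown and 1343 and 2380 in the controls, which overlap. On the stabilized array 2 of the 6 genes were higher and 4 lower than on the GFP array (median -0.56), while Kit differed by -0.05. The part of these genes in the Kit value was not tested. Kitl, the gene of stem cell factor, differed by 0.39 ± 0.25 (SE; limma, adjusted p = 0.66), with overlapping groups.

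Hdc makes histamine from histidine, in mast cells and also in neutrophils and other myeloid cells. Its brighter probe read 13.82 and 13.81 in the knockdown, between the 2 tamoxifen controls at 13.13 and 13.96 (0.27 ± 0.29, SE; limma, adjusted p = 0.789). The second probe read 10.49 and 10.72 in the knockdown, again inside the range of the controls, 9.98 and 10.78 (0.22 ± 0.29). The control spread alone was 0.59 (SD) on the first probe, larger than the difference. Without tamoxifen control replicate 1 the differences were -0.15 and -0.18, and without replicate 2 they were 0.688 and 0.625, on the brighter and the dimmer probe.

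Hpgds, the prostaglandin D synthase of mast cells, macrophages and some T cells, showed no separation either. Its brighter probe read 8.44 and 8.31 in the knockdown, inside the range of the controls at 8.94 and 7.99 (-0.09 ± 0.33, SE; limma, adjusted p = 0.944). The second probe read 8.18 and 8.08 in the knockdown and 8.61 and 7.63 in the controls. Macrophages also carry Hpgds, and 7 of 10 listed macrophage and dendritic cell genes passed detection, while Itgax and Epcam did not. Their summed linear signal was 27249 and 28800 in the knockdown, against 24338 and 17646 in the controls, and 26917 on the stabilized against 19255 on the GFP array. Without H2-Ab1, the brightest of them, the sums were 10228 and 12158 in the knockdown and 12395 and 8966 in the controls, which overlap. Within the list, H2-Ab1 (0.73), Cd207 (0.65) and H2-Aa (0.59) were higher in the knockdown. Cd163 was lower (-1.20 ± 0.38, SE; limma, adjusted p = 0.371), and Adgre1, Csf1r and Mrc1 overlapped between the groups. The part of these genes in the Hpgds values was not tested. The sign on the brighter probe depended on which control was kept, at 0.38 without tamoxifen control replicate 1 and -0.57 without replicate 2.

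Between the adenovirus wounds the same 4 genes, with Tpsb2, read higher on the stabilized than on the GFP array, and Hdc read lower. With 1 array each there is no replicate check, and no test was made. Cpa3 read 9.02 on the stabilized and 8.24 on the GFP array, a 1.71-fold difference. Mcpt4 read 8.59 and 7.71 (1.84-fold), Tpsb2 8.14 and 7.29 (1.81-fold), the brighter Cma1 probe 8.87 and 8.33 (1.46-fold) and the brighter Fcer1a probe 7.34 and 6.71 (1.55-fold), each on the stabilized and then on the GFP array. None of these reached 2-fold. The 2 Hdc probes, at 12.71 and 10.19 on the stabilized array against 14.55 and 12.15 on the GFP array, were 3.59-fold and 3.89-fold lower, the only 2 of the 14 member probes at least 2-fold apart, while 3.8% of all probes were at least 2-fold higher and 4.64% at least 2-fold lower. The brighter Hpgds probe read 9.29 on the stabilized and 8.95 on the GFP array, and Kit differed by -0.05. On the stabilized array 11 of the 14 member probes were higher, against 55.1% of all probes. The median of the member probes was 0.53, against 0.05 over all probes tested.

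**Figure D2:**
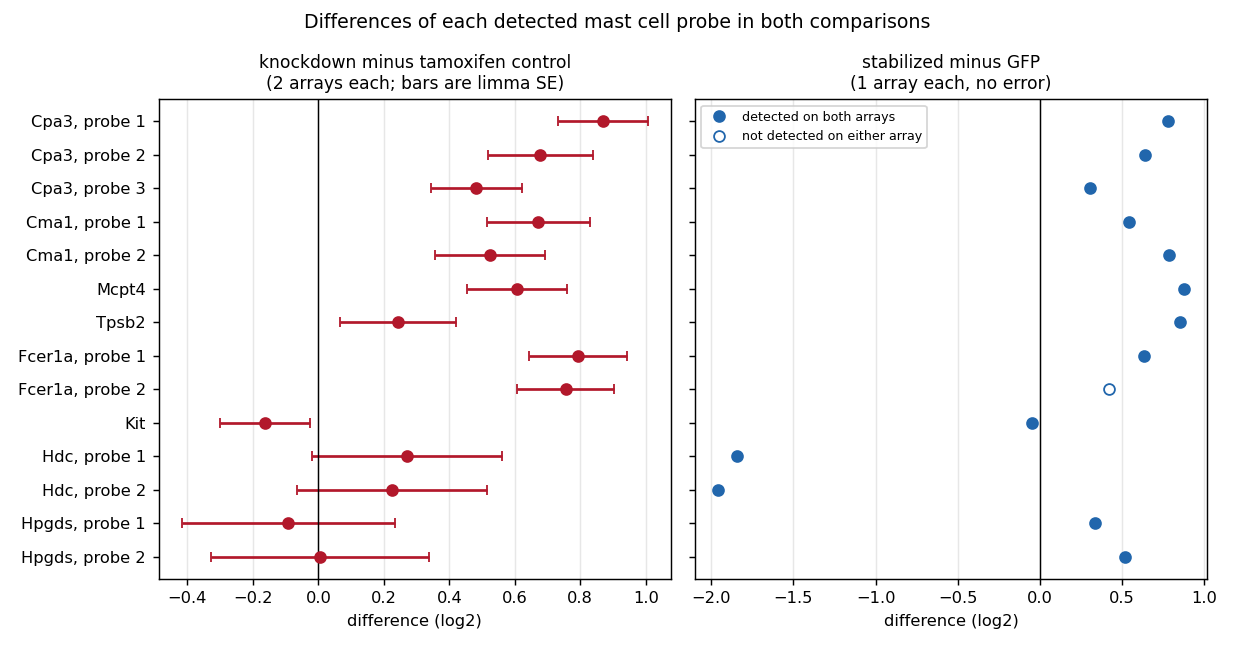
Difference in log2 signal (x axis) of each of the 14 detected mast cell probes (rows), for knockdown minus tamoxifen control with limma SE bars (left, 2 arrays each) and for stabilized minus GFP (right, 1 array each, without an error). The 8 probes of Cpa3, Cma1, Mcpt4 and Fcer1a lie above 0 on both sides, and the 2 Hdc probes lie near -1.85 and -1.96 on the right.

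The size of these differences depended on the scaling. With arrays scaled to a common median in place of quantile normalization, the median of all probes in the pair was 0.571, and 15.4% of all probes were at least 2-fold higher and 2.68% at least 2-fold lower. There 8 member probes were at least 2-fold higher, and relative to that shift 0 were, while the 2 Hdc probes were at least 2-fold lower either way. The Kit difference is smaller than that shift.

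Hdc ran with the neutrophil genes over the adenovirus arrays. The list of 10 neutrophil markers had 6 members that passed detection. Camp, Ngp and Mmp8 did not pass, and Ly6g had no probe by that symbol. All 6 were lower on the stabilized than on the GFP array (median -1.60), 5 of them at least 2-fold, among them Ltf, lactoferrin, by -2.57 and the chemokine receptor gene Cxcr2 by -1.64. Their summed linear signal was 81506 on the stabilized and 126537 on the GFP array, against 62975 and 71231 in the knockdown and 79065 and 86679 in the tamoxifen controls. Without S100a8, the brightest of them, the sums were 28306 on the stabilized and 62417 on the GFP array. In the knockdown they were then 27505 and 32011 and in the tamoxifen controls 28038 and 34676, which overlap. The part of these genes in the Hdc reading was not tested. For the proteases and Fcer1a the neutrophil list went the other way over these 2 arrays.

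Across both models, 10 of the 14 member probes were higher in the knockdown than in its control and also higher on the stabilized than on the GFP array, against 25.5% of all probes. These 10 include the dimmer Fcer1a probe, below detection on both adenovirus arrays, and the dimmer Hpgds probe, which differed by 0.0046 in the knockdown. With 1 probe per gene, 5 of 8 members were higher in both, against 2719 of 10266 genes. The 2 comparisons share no arrays, although the 6 were normalized together. A trend with β-catenin coded from low to high (-1 in the knockdown, 0 in both controls, 1 in the stabilized wound, with the model system as a term) combines the 2 differences into 1 slope. It can differ from 0 also where both have the same sign. limma passed 0 member probes for this slope and 0 of all probes (0%), and at an unadjusted p under 0.05 there were 0 member probes and 10.3% of all probes. The slope was -0.32 ± 0.34 (SE) for the brightest Cpa3 probe (adjusted p = 0.755), -0.11 ± 0.32 for Mcpt4 (adjusted p = 0.914) and -0.80 ± 0.38 for the brighter Hdc probe (adjusted p = 0.539). Slopes were below 0 for 10 of the 14 member probes, against 48.3% of all probes. For the 8 probes of Cpa3, Cma1, Mcpt4 and Fcer1a both differences were above 0, so their slopes below 0 do not show opposite changes. The fit gives the knockdown difference more weight, because it rests on 2 arrays a group against 1. The median slope of the member probes was -0.23, against 0.01 over all probes. It was -0.106 with median scaling, -0.153 without knockdown replicate 1 and -0.0593 without knockdown replicate 2. Without tamoxifen control replicate 1 it was -0.106, and without tamoxifen control replicate 2 it was -0.127.

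The chymase locus on chromosome 14 runs from Cma1 to Gzmb and holds 15 genes of mast cell proteases, cathepsin G and granzymes in RefSeq, all with a probe on the array. Only Cma1, Mcpt4 and Cma2, a chymase 2 gene between them, passed detection, and Mcpt1 and Mcpt2, the proteases of mucosal mast cells, and Mcpt9 did not, nor did Mcpt8 of basophils or the granzyme genes. Cma2 is outside the naming rule and was singled out after its values were seen. Of its 2 probes 1 was detected on none of the arrays. The other read 10.31 and 10.27 in the knockdown and 9.52 and 9.81 in the tamoxifen controls (limma difference 0.63 ± 0.16, SE, with an adjusted p of 0.289). The stabilized array was at 9.26 and the GFP array at 8.78, the same order of groups as Cma1 and Mcpt4. Near-identical proteases can share probe signal, and no probe sequences were examined.

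Tpsab1, the second tryptase gene beside Tpsb2 on chromosome 17, was detected on the 2 adenovirus arrays and on none of the tamoxifen arrays. It read 9.30 on the stabilized and 8.53 on the GFP array, and 5.38 and 5.38 in the knockdown against 4.92 and 5.32 in the tamoxifen controls, all 4 of these below detection. RefSeq lists the gene as a transcribed pseudogene in the C57BL/6J assembly, and C57BL/6 mice are known to lack this tryptase because of a splice site mutation. All 6 samples carry the same strain label, and the genetic background of the mice was not tested. Tpsab1 was also singled out after its values were seen. Tpsb2, by contrast, was detected on all 6 arrays.

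Fcer1g, the γ chain that the IgE receptor shares with other Fc receptors, read 13.21 on the stabilized array but 7.14 on the GFP array, a difference of 6.06 and the largest positive one of all 17410 probes. In the knockdown it read 14.10 and 13.93, and in the tamoxifen controls 13.89 and 13.57. The array holds 1 probe for it, so no second reading exists. Among the nearest 20 coding genes on each side of Fcer1a on chromosome 1, 16 in all were measured. Of these 16, 5 were at least 2-fold higher on the stabilized than on the GFP array and 0 lower. Of all 10266 genes, 330 were at least 2-fold higher and 433 lower. The 5 neighbours of Fcer1a are Dusp23, Ifi204, Ifi205, Ifi207 and Ifi213. Around the other members 0 to 2 such genes were found. Fcer1a itself differed there by 0.64, inside the range of the Cpa3, Cma1 and Mcpt4 probes, 0.31 to 0.88. These neighbours were examined after the data were seen.

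**Figure D3:**
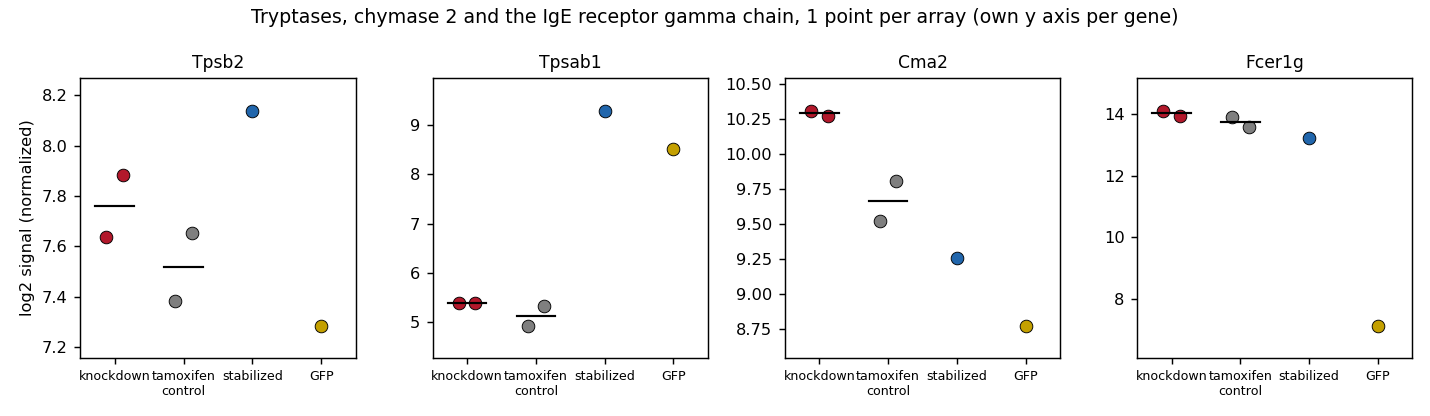
Normalized log2 signal (y axis, a separate scale for each gene) of Tpsb2, Tpsab1, Cma2 and Fcer1g by group (x axis), 1 point per array, with a bar at the mean of each group of 2 arrays. Tpsab1 lies at 9.30 on the stabilized and 8.53 on the GFP array and between 4.92 and 5.38 on the tamoxifen arrays, and Fcer1g lies between 13.21 and 14.10 on every array except GFP, at 7.14.

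Of 30 further mast cell genes 15 passed detection, and they differed in both directions. In the knockdown 7 were higher and 8 lower, with a median of -0.03 and 0 passing the test. Those with the smallest p were the adenosine receptor Adora3 (0.83 ± 0.24, SE; limma, adjusted p = 0.338), Gata2, Rab27b, a regulator of granule release (-0.82 ± 0.31, adjusted p = 0.444), and Mrgprb2, the mast cell receptor for peptides and drugs, at 6.88 and 7.04 in the knockdown and 6.36 and 6.70 in the controls (0.43 ± 0.18, adjusted p = 0.497). Mrgprb2 was below detection on both adenovirus arrays, and Adora3 on both tamoxifen controls. Mitf, Gata1, Rgs13, Cyp11a1, Tph1 and Slc18a2 did not pass detection. On the stabilized array 12 of the 15 were higher than on the GFP array and 3 lower (median 0.28), against 5571 of 10266 genes higher (median 0.04).

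Of 15 genes of IgE receptor signalling 8 were detected, 5 higher and 3 lower in the knockdown (median 0.20, 0 passing the test). After Vav1, at 0.29 ± 0.14, the smallest p belonged to Fcer1g (0.29 ± 0.17, limma adjusted p = 0.624). Next came Btk, at 0.28 ± 0.21, and Lcp2, which was lower, at -0.37 ± 0.28, both with overlapping groups. Lcp2 differed by -1.22 between the stabilized and GFP arrays. On the stabilized array 4 were higher and 4 lower (median 0.04). The kinases Syk and Fyn and the adaptor Lat did not pass detection.

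Basophils also carry Fcer1a and Ms4a2. Of 6 basophil markers, Il3ra was detected on all 6 arrays and Cd69 on the 2 adenovirus arrays only, while Mcpt8, Prss34, Cd200r3 and Itga2 did not pass. Both Il3ra and Cd69 are used by other cells too. Il3ra differed by 0.01 in the knockdown and by 0.10 between the stabilized and GFP arrays. Cd69 differed by -1.18 in that pair, and its readings on the tamoxifen arrays were all below detection. Of 7 eosinophil markers only Prg2 passed (0.72 ± 0.36, SE; limma, adjusted p = 0.571, and 0.60 in the pair). It was detected on 1 knockdown array and the stabilized array alone, so it entered through the arrays in which it is high.

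Other cell types also differed between the groups. In the knockdown all 10 skeletal muscle genes were higher (median 1.30), as were the 4 detected T and B cell genes (median 1.12) and 5 of 7 macrophage and dendritic cell genes (median 0.26), while 9 of 10 keratinocyte genes (median -0.74), 7 of 10 fibroblast genes (median -0.13) and 3 erythrocyte genes (median -0.50) were lower. Of these 3, Slc4a1 was detected on the tamoxifen controls alone, so the filter fixed its direction, and Hba-a1 and Alas2 overlapped between the groups. No member of these lists passed the test. In the pair the medians of these lists were -1.93 for muscle, -0.48 for T and B cells, 0.35 for macrophages and dendritic cells, 0.01 for keratinocytes, 0.60 for fibroblasts and -0.71 for erythrocytes. All 10 muscle genes and the T cell genes Cd3d, Cd3e and Cd3g were higher in the knockdown and lower on the stabilized array, whereas the B cell gene Cd79b was higher in both, by 1.14 in the knockdown and 1.03 in the pair. Whether shifts in tissue makeup account for the mast cell values was not tested.

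**Figure D4:**
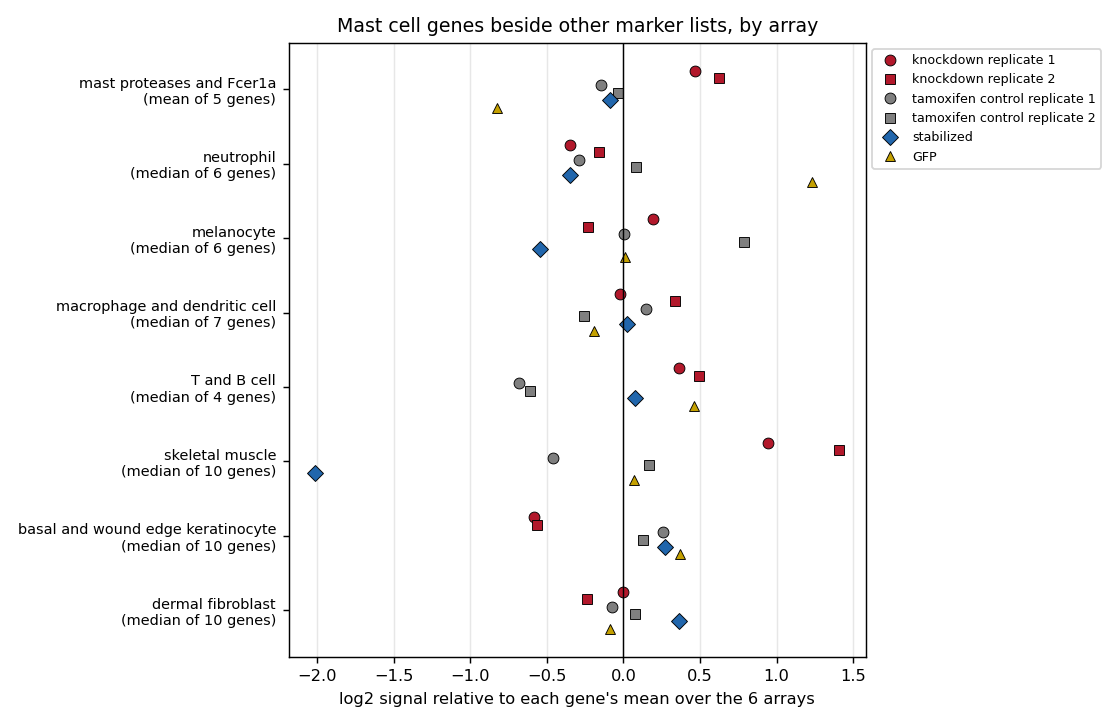
Log2 signal relative to the 6-array mean of each gene (x axis) for the mean of the 5 detected mast protease and IgE receptor genes and the medians of 7 other marker lists (rows), with 1 symbol per array. The mast cell row has the knockdown arrays at 0.47 and 0.62, the tamoxifen controls at -0.14 and -0.04, the stabilized array at -0.09 and the GFP array at -0.83, and the neutrophil row has the GFP array at 1.23, above the others.

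The genes whose pattern over the 6 arrays was most like the mean of Cpa3, Cma1, Mcpt4, Tpsb2 and Fcer1a were Gga2 (r = 0.998), Grpel2 (r = 0.9898), Smim11 (r = 0.9895), Tmem204 (r = 0.9857) and Vegfb (r = 0.9854), out of 10044 genes that are no members. With 6 arrays and so many genes, 63 had an r above 0.95. Gga2 spanned a narrower range, 10.69 and 10.74 in the knockdown, 10.47 and 10.54 in the tamoxifen controls, 10.51 on the stabilized and 10.27 on the GFP array.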

How the data were processed

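RNA of 6 wound samples was hybridised to Illumina bead arrays of 1 colour, 1 array per sample. Per the file headers, the authors deposited a linear intensity for every probe (its mean over beads), before any normalization between arrays, and a detection p-value. The authors' processed log2 values were deposited as well. The submitters' processing notes name R 2.14 and limma without settings, and the sources used here give no scanner software. Each log2 column ranked the probes as the intensities of its array did (Spearman correlation 1), with column medians of 5.12 and differences of at most 0.101 from the values computed here, so scale and direction are known, while background and offset settings stay unknown. Batches could not be examined, as neither slides nor scan times were given. All sample columns were used, and 2 lines with no value were dropped.

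Of 45281 probes 34885 had 1 gene in the platform annotation, 18 had several and 10378 were not listed. Gene symbols were brought up to date with RefSeq (GRCm38.p6) by Entrez number, for 34807 probes. In limma 3.58.1 (R 4.3.3) intensities were background-corrected with the detection p-values (neqc, offset 16), taken to log2 and quantile-normalized. Probes with detection p under 0.01 on at least 2 arrays entered 1 fit (lmFit, eBayes) over the means of the 4 groups, with two-sided tests, p-values adjusted by Benjamini-Hochberg across these probes, and a threshold of 0.05. Residual spread comes from the tamoxifen groups alone (2 degrees of freedom and 3.22 from the prior). The adenovirus arrays were compared without a test. The fits were tested on simulated data.

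The members and the 12 other gene lists were chosen with earlier results of these data known. Lists were summarised by the brightest probe of each gene. The naming rule takes every member probe, up to 4 genes of each list by smallest p in the knockdown, the 5 genes most like the proteases and IgE receptor chains, and Ctnnb1. Alternatives covered normalization, background, offset, filter, probes per gene, the variance prior, the authors' values, a replicate block and leaving out each replicate. Normalizing the tamoxifen arrays alone, and summing marker lists without their brightest gene, were added after seeing the data. The precision is limited by the number of arrays.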

Additional observations from a re-analysis of the deposited data

How the results depend on the processing

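The 8 probes of Cpa3, Cma1, Mcpt4 and Fcer1a stayed above 0 in the knockdown in all 115 alternative values computed, between 0.269 and 0.946, with a lowest adjusted p of 0.123. No member probe passed in the knockdown or the trend under any alternative run. The median of the member probes in the knockdown was 0.302 with no background correction, and 0.41 to 0.657 when 1 replicate was left out. In the pair it was 1.1 with median scaling and 0.377 with no background correction, and the count of member probes at least 2-fold apart was 10 with median scaling, 1 with 1 probe per gene and 2 otherwise. The median trend slope was -0.106 with median scaling and -0.153 to -0.0593 when 1 replicate was left out. Over all probes, 0 to 2 passed in the knockdown with 1 replicate left out, the 2 without tamoxifen control replicate 1. When an arm was left with 1 array, it was taken to vary like the other groups.

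Signs turned for values near 0. They also turned for the Hdc differences in the knockdown, 0.27 and 0.22 in the main run, without tamoxifen control replicate 1. The dimmer Hpgds probe was at -0.013 with no background correction and -0.00387 with offset 50, and the trend slopes of the dimmer Cma1 probe and of Mcpt4 were 0.0554 and 0.031 with median scaling. With 1 replicate left out, the knockdown difference ran from -0.485 to 0.494 and from -0.566 to 0.382 for the 2 Hpgds probes and from -0.176 to 0.625 and -0.147 to 0.688 for the 2 Hdc probes. The trend slope ran from -0.053 to 0.13 for the dimmer Cma1 probe, -0.0218 to 0.0795 for Mcpt4, and -0.0601 to 0.499 and -0.0732 to 0.468 for Hpgds. The cause was not tested. Over the tamoxifen arrays, deviations of same-numbered arrays correlated with r = 0.0916, so the numbers were not treated as pairs. With the replicate number as a block the member median was 0.504, 0 member probes and 0 probes in all passed, and 2295 probes had an unadjusted p under 0.05, against 1854 without it.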
